A study of Zea mays with 15 samples.

Results

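The change of the ethephon response between the first and the second day was measured on 12 of the 15 arrays of the series, those of maize (Zea mays) seedlings sprayed with ethephon or with water and sampled 24 h or 48 h later. They were chosen by their labels, 3 arrays in each of 4 groups: Eth-24 h, CK-24 h, Eth-48 h and CK-48 h, where Eth plants were sprayed with 600 mg/L ethephon and CK plants with water. The plants were greenhouse seedlings at the jointing stage with 8 leaves, 100 in each treatment, and the labels name no inbred line or allele. Each array held RNA of the seventh internode's meristem pooled from 3 seedlings, so a signal is a mean over plants and over all cells of the piece that was cut. The 3 CK-0 h arrays, taken at 0 h from plants without either spray, served in the estimate of the spread. They also counted in the mean signal over the 15 arrays, which set the signal filter and the probe set that stood for a gene.

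Ethephon is a growth regulator that breaks down inside plant tissue and releases ethylene, and it is sprayed on maize to shorten the stalk. Ethylene is sensed by membrane receptors that hold the pathway off until the hormone binds, and in several plants the genes of some receptors are themselves raised by ethylene. In a grass stem, new cells come from the intercalary meristem at the base of each internode and then elongate. Cytokinin promotes division there, gibberellin promotes elongation, and cells that have stopped elongating lay down a secondary wall. The question of the comparison was which genes stood apart from water on the first day and no longer on the second, which turned to the other side, and which stood apart on the second day alone.

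Values are MAS5 signals, the linear brightness of a probe set after the array maker's background correction and scaling. The response at each time is the difference of mean log2 signal, Eth minus CK, and the response difference is the response at 48 h minus that at 24 h. A positive value therefore means that ethephon stood higher, relative to water, on the second day than on the first. Errors after ± are standard errors of the limma fit, with 3 arrays per group. Of 17621 probe sets other than controls, 10573 had a mean signal at or above the 40th percentile and were tested, and 762 genes with a name were among them. In bulk tissue, fewer cells of a type and less RNA per cell cannot be told apart.

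The arrays differed in the signal of secondary-wall genes. The 5 genes of the marker list for cells with a secondary wall (the secondary-wall cellulose synthase genes cesa10, cesa11 and CesA12, the COBRA-like gene bk2, and the lignin gene BM1) had a summed signal of 2785, 2929 and 28070 on Eth-24 h replicates 1 to 3, against 3093, 3949 and 3436 on the CK-24 h arrays. At 48 h their sum was 22019, 14296 and 3578 on the Eth-48 h arrays, against 6177, 4695 and 10323 on the CK-48 h arrays. Eth-24 h replicate 3 and Eth-48 h replicates 1 and 2 thus stood far above the remaining Eth arrays. The part of this marker difference in each result below was not tested, but each class of genes was also counted without Eth-24 h replicate 3 and Eth-48 h replicate 1, and with the marker level as a covariate, both chosen after the data were seen. Eth-48 h replicate 2 (14296) was not left out, so the arrays that remained without this pair still differed in these markers. Markers of the labelled tissue were kept for 5 of 6 genes (kn1, lg3, fea2, pcna2 and cycD2), with sums of 7979 to 9684 in Eth-24 h, 8318 to 9089 in CK-24 h, 7906 to 10020.1 in Eth-48 h and 7986 to 10335 in CK-48 h. These sums cover members on different sides. At 24 h kn1 (-0.22) and fea2 (-0.27) lay wholly below CK and cycD2 (0.73) wholly above, while lg3 (-0.47) and pcna2 (-0.66) overlapped. At 48 h lg3 (-0.66) lay wholly below CK and cycD2 (0.31) wholly above, and the others overlapped. The meristem gene zfl1 was below the signal filter, and at 24 h it lay wholly below CK (-0.57). Of 6 leaf markers, 4 were kept, summing to 6722 to 11694, 7643 to 8851, 6916 to 11262 and 6909 to 13492 in the same order of groups, and ME1 and pep1 were below the filter. The 3 kept storage and seed markers (ae1, bt2 and gz27) summed to 1471 to 1572, 1561 to 1858, 1654 to 1975 and 1257 to 1435, so that their sums were higher on all Eth-48 h arrays than on all CK-48 h arrays, and o2, sh2 and gz50 were below the filter. The 2 kept epidermis and wax markers summed to 2612 to 3478, 2448 to 3008, 2206 to 4374 and 2523 to 3063. Of these, gl1 was 2.82 at 24 h, wholly above CK, and 1.78 at 48 h with overlap. The brighter gl8 was -0.02 and then -0.18, with overlap at both times. The part of these markers in the results was not tested. Arrays of 1 group correlated with each other at Pearson's r of 0.765 to 0.914 over the kept probe sets, and arrays of different groups at 0.679 to 0.941.

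**Figure D1:**
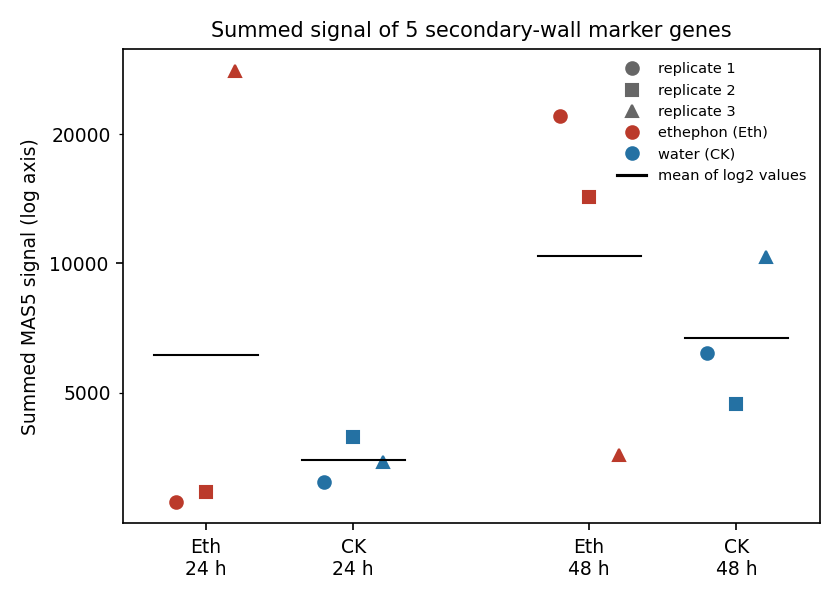
Summed MAS5 signal (log axis) of 5 secondary-wall marker genes on each of the 12 sprayed arrays, with replicates as symbols and bars at the mean of the log2 values. Eth-24 h replicate 3 (28070) and Eth-48 h replicates 1 and 2 (22019 and 14296) lie above every CK array, and the other Eth arrays lie among or below the CK arrays.

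On the first day after the spray, the cytokinin response regulators RR5, RR6 and RR7, the benzoxazinoid gene bx1 and the desaturase gene fad7 read lower on every ethephon array than on every water array, and the abscisic acid gene vp14, the gibberellin gene d3 and the ethylene receptor gene etr2 read higher. On the second day RR5, RR6, bx1, fad7 and vp14 overlapped with water, while RR7, d3 and etr2 still stood apart by a smaller margin. The glutathione transferase gene gst30, the haemoglobin gene Hb and the kinase gene MPK4 stood apart by at least 1 on the log2 scale on both days. So did the cystatin gene cpi2, by the brighter of its kept probe sets. No probe set passed the test of the response difference. None of 10573 (0.0%) had an adjusted p under 0.05 (limma, Benjamini-Hochberg), the lowest adjusted p was 0.9999, and the lowest unadjusted p was 0.0042. At an unadjusted p under 0.05, 98 probe sets (0.927%) were counted, 63 of them above 0 (0.596%) and 35 below 0 (0.331%), and 8 of the 762 named genes (1.05%). That share is lower than the 5.0% that evenly spread p-values would give. The response at each time on its own gave 0 calls too (lowest adjusted p 0.375 at 24 h and 0.994 at 48 h, limma), with 951 probe sets (8.99%) at an unadjusted p under 0.05 at 24 h and 343 (3.24%) at 48 h. What follows are therefore values and counts, and no named gene is called changed. The median standard error of a response difference was 0.377, and 3 arrays in a group limit the precision.

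The responses were smaller on the second day. The median size of the Eth minus CK difference was 0.261 at 24 h and 0.184 at 48 h on the log2 scale, and 62.8% of the probe sets were closer to 0 at 48 h. The 3 Eth arrays lay wholly outside the 3 CK arrays for 1886 probe sets at 24 h (17.8%), 745 of them higher in Eth (7.05%) and 1141 lower (10.8%), and for 955 at 48 h (9.03%), 543 higher in Eth (5.14%) and 412 lower (3.9%). With exchangeable labels, 3 against 3 arrays would not overlap, in either direction, with a probability of 0.1. The share at 24 h lay above this and the share at 48 h below it. With a difference of at least 1 as well as no overlap, 299 probe sets (2.83%) were counted at 24 h and 136 (1.29%) at 48 h. Of the 299, 272 had the same sign at 48 h and 289 were smaller there, with a median size of 1.39 at 24 h and a median of 0.67 at 48 h when counted in the direction of the first day. Of the 136 chosen at 48 h, 116 had the same sign at 24 h, and 104 were smaller at 24 h, with medians of 0.82 at 24 h and 1.38 at 48 h. Probe sets picked for size at either time were smaller at the other, so the direction of that shrinkage depends on the time used to pick them.

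The 4 patterns were defined by size. A response was counted as lost when it was at least 1 in size at 24 h with no overlap of the arrays and under 0.5 at 48 h, and 102 probe sets (0.965%) and 14 named genes (1.84%) met this. It was counted as reversed when the signs differed and both sizes were at least 0.5, which 82 probe sets (0.776%) and 8 named genes (1.05%) met. It was counted as appeared when it was under 0.5 at 24 h and at least 1 at 48 h with no overlap, which 35 probe sets (0.331%) and 1 named gene (0.131%) met. It was counted as kept when it was at least 1 in the same direction at both times with no overlap at either, which 26 probe sets (0.246%) and 4 named genes (0.525%) met. Of the 102 lost, 39 were higher and 63 lower in Eth at 24 h, and of the 26 kept, 24 were higher. At the edge of the class, 16 lost probe sets had a size of 0.4 to 0.5 at 48 h, and 25 otherwise like them had 0.5 to 0.6 and were left out. Among the 82 reversed, 64 had overlapping arrays at both times, 8 overlapped at 48 h but not at 24 h, 10 overlapped at 24 h but not at 48 h, and none stood apart at both times by this size rule. Over all kept probe sets, 8 (0.0757%) stood apart in opposite directions at the 2 times at any size, and no named gene did.

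Membership of the classes depended on single arrays. With 1 array left out at a time, 39 (without Eth-48 h replicate 3) to 98 of the 102 lost probe sets remained lost, 38 (without Eth-24 h replicate 3) to 77 of the 82 remained reversed, 17 (without CK-24 h replicate 1 or CK-48 h replicate 3) to 33 of the 35 remained appeared, and 18 (without Eth-48 h replicate 1) to all 26 remained kept. Without CK-48 h replicate 3, 57 lost and 47 reversed remained. Without Eth-24 h replicate 3 and Eth-48 h replicate 1, 35 of the 102 lost, 36 of the 82 reversed, 16 of the 35 appeared and 18 of the 26 kept probe sets remained in their class. With the secondary-wall marker level as a covariate, 33, 40, 23 and 25 remained in the same order. Of the named genes, 5 of 14 lost remained without the pair of arrays (RR6, RR7, vp14 and gst28 among them), 2 of 8 reversed (AN3 and TIP3-1), and all 4 kept. Without that pair bx1 and GRF2 met the rule for reversed and NIP2-1 that for appeared. Over the 12 fits with 1 array left out, lost named genes stayed in class in 8 (bx1) to 12 (RR6), reversed ones in 8 (rf2c) to 11 (TIP3-1 and NIP2-3), expa1 in 8, and kept ones in 11 (cpi2) or 12. Between 24 and 48 h the Eth arrays moved more than the CK arrays for 73 of the 102 lost probe sets and for 13 of the 14 lost named genes, against 5646 of all 10573. For 25 of the 35 appeared and 50 of the 82 reversed probe sets, the CK arrays moved more.

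**Figure D2:**
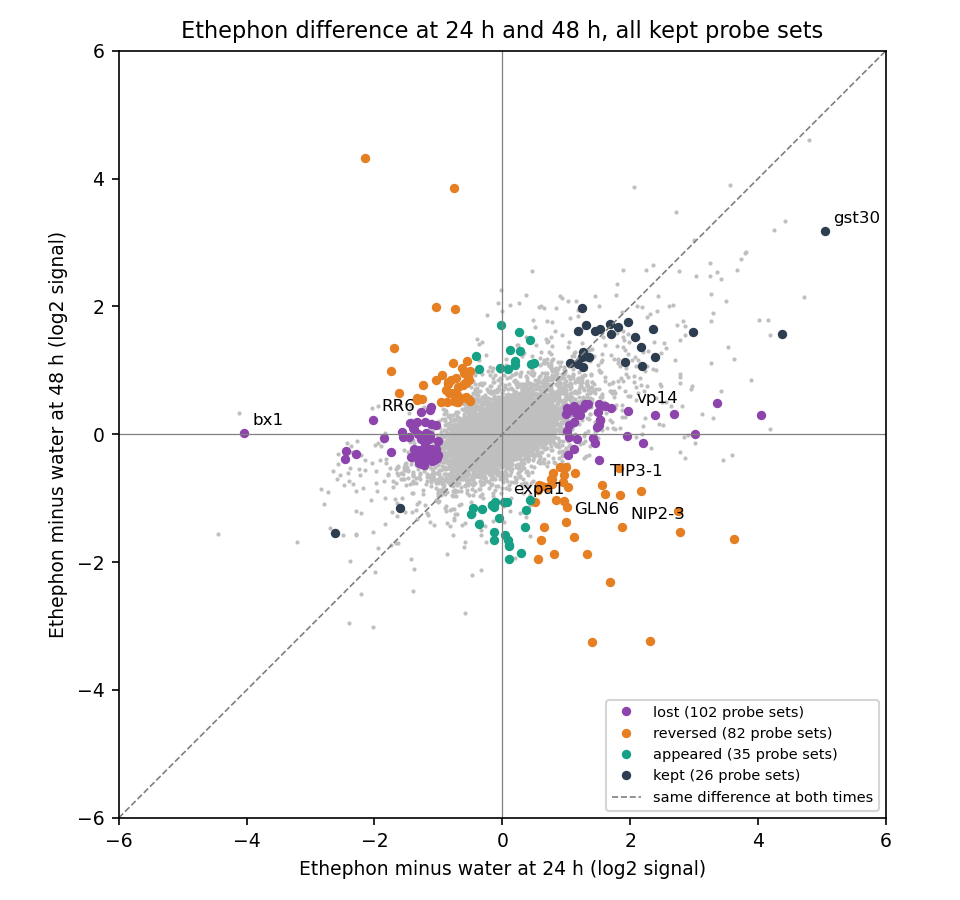
Ethephon minus water difference of mean log2 signal at 24 h (x axis) and 48 h (y axis) for the 10573 kept probe sets in grey, with the classes lost (102), reversed (82), appeared (35) and kept (26) in colour and some genes labelled. Lost probe sets lie along the horizontal line near 0 at 48 h, and the kept ones lie toward the dashed line of equal differences, mostly in the upper right.

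Type-A cytokinin response regulators are small proteins without a DNA-binding output domain whose genes are switched on by cytokinin and which damp the cytokinin signal. The array held 6 of them, and the 3 above the filter, RR5, RR6 and RR7, were all counted as lost. RR6 (Zm.325.1.A1_at) had signals of 216, 398 and 189.9 on the Eth-24 h arrays, against 813, 1008 and 1321 on the CK-24 h arrays. At 48 h it had 1601, 940.2 and 1193 on the Eth-48 h arrays, against 1243, 743 and 1210.2 on the CK-48 h arrays. The Eth-24 h arrays were thus all under the CK-24 h arrays, by 4.05-fold, and the groups overlapped at 48 h. The response was -2.02 ± 0.53 at 24 h and 0.23 ± 0.53 at 48 h, a response difference of 2.25 ± 0.75 (unadjusted p = 0.011, adjusted p = 0.9999, limma). Leaving out any single array gave 2.00 to 2.57, so no array decided it, and CK signals differed by only 0.01 between the times.

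RR5 (Zm.13810.1.S1_at) had signals of 525, 363 and 164 on the Eth-24 h arrays, against 607, 630.1 and 709.5 on the CK-24 h arrays, and at 48 h of 525, 623 and 889 on the Eth-48 h arrays, against 640.2, 524 and 638 on the CK-48 h arrays. The groups were apart at 24 h and overlapped at 48 h. Its response was -1.04 ± 0.36 and then 0.15 ± 0.36, a difference of 1.19 ± 0.51 (unadjusted p = 0.037, adjusted p = 0.9999, limma), which was 0.71 without Eth-24 h replicate 3, the array high in wall markers and lowest in RR5. RR7 (Zm.326.1.S1_at) had signals of 108, 172 and 160.1 on the Eth-24 h arrays, against 316, 326 and 394 on the CK-24 h arrays, and at 48 h of 260.4, 269 and 263 on the Eth-48 h arrays, against 435, 338 and 327 on the CK-48 h arrays. RR7 was lower in Eth without overlap on both days, by a smaller margin on the second, with -1.26 ± 0.28 and then -0.46 ± 0.28, a difference of 0.79 ± 0.40 (unadjusted p = 0.067). Its size at 48 h put it just inside the class lost. The 3 members under the filter, with mean signals of 132 (RR4), 26.0 (RR3) and 116 (RR11), gave response differences of 0.98, 0.17 and -0.14 in the fit without a filter. RR4 was also lower in all Eth-24 h arrays than in all CK-24 h arrays, by 0.91 on the log2 scale. The median response of the 3 kept genes was -1.26 at 24 h and 0.15 at 48 h, and the median response difference was 1.19, between 0.87 and 1.56 with any array left out, beside 0.042 over all kept probe sets.

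The response differences of other cytokinin genes lay on both sides of 0. Of 9 kept genes of receptors, phosphotransfer proteins, type-B regulators and cytokinin oxidases, 5 had a response difference above 0 and 4 below, with a median of 0.17 whose sign turned in 2 of the other settings. The lowest p among them was that of HK1, a cytokinin receptor histidine kinase. HK1 had signals of 459, 441 and 318 on the Eth-24 h arrays, against 507, 522 and 619 on the CK-24 h arrays, and at 48 h of 323, 496 and 409.7 on the Eth-48 h arrays, against 404, 258 and 369.9 on the CK-48 h arrays. Its Eth-24 h arrays were all below its CK-24 h arrays, and the difference of 0.70 ± 0.37 (unadjusted p = 0.079) lay in the CK arrays, which were -0.70 at 48 h relative to 24 h on the log2 scale while the Eth arrays differed by 0.01.

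bx1 makes the indole from which maize builds its benzoxazinoid defence compounds, and it had the largest fitted response difference among the 762 named genes. bx1 (Zm.283.1.S1_at) had signals of 511, 84.2 and 70.4 on the Eth-24 h arrays, against 1371, 2373 and 4159 on the CK-24 h arrays, and at 48 h of 174, 1783 and 2199 on the Eth-48 h arrays, against 1544, 2105 and 203 on the CK-48 h arrays. On the first day the Eth arrays lay between 70.4 and 511, all below the lowest CK array. On the second day both groups spanned about the same range, with Eth-48 h replicate 1 and CK-48 h replicate 3 low. The response was -4.04 ± 1.31 and then 0.02 ± 1.31, a difference of 4.06 ± 1.85 (unadjusted p = 0.048, adjusted p = 0.9999, limma), between 3.01 and 5.23 with single arrays left out. It stayed in the class lost in 8 of those 12 fits, and counted as reversed without Eth-24 h replicate 3 and Eth-48 h replicate 1. The low arrays at 48 h were the highest of their groups in wall markers. At 24 h bx1 was lowest on Eth-24 h replicate 3 (70.4), the array with the highest wall marker sum (28070). It was also low on Eth-24 h replicate 2 (84.2), with the low wall marker sum of 2929. The part of wall markers in the bx1 values was not tested.

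fad7 encodes a chloroplast omega-3 fatty acid desaturase. fad7 had signals of 698, 760.2 and 402 on the Eth-24 h arrays, against 762, 1479 and 1533 on the CK-24 h arrays, and at 48 h of 1217, 1011 and 1477 on the Eth-48 h arrays, against 1378, 1202 and 1383 on the CK-48 h arrays. At 24 h the highest Eth array lay just under the lowest CK array, so the non-overlap hung on 2 close values, and at 48 h the groups overlapped. Its response difference was 0.89 ± 0.42 (unadjusted p = 0.054), and 0.61 without Eth-24 h replicate 3. mpao1, a polyamine oxidase gene outside the class, had 2995, 2047 and 1540.2 on the Eth-24 h arrays, against 4133, 2870.0 and 3090.2 on the CK-24 h arrays, and then 2792, 3127 and 2792 on the Eth-48 h arrays, against 2436, 2515 and 3413 on the CK-48 h arrays. Its response was -0.65 ± 0.24 and then 0.07 ± 0.24.

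Among the lost genes that were higher under ethephon, vp14 had the largest response difference. It encodes the 9-cis-epoxycarotenoid dioxygenase that commits carotenoids to abscisic acid. vp14 (Zm.463.1.A1_at) had signals of 918, 791 and 460.0 on the Eth-24 h arrays, against 317, 98.8 and 177 on the CK-24 h arrays, and at 48 h of 181, 174 and 84.7 on the Eth-48 h arrays, against 91.7, 153 and 89.2 on the CK-48 h arrays. All Eth-24 h arrays exceeded all CK-24 h arrays, by 3.92-fold in the mean of log2 values, and the groups overlapped at 48 h. Of the sprayed groups, only Eth-24 h had a mean signal above the filter level, and all Eth-48 h and CK-48 h arrays lay under it. With detection calls not used here, the size of the vp14 response at 48 h is uncertain. The part of low signal in its place in the class lost was not tested. The response was 1.97 ± 0.56 and then 0.36 ± 0.56, a difference of -1.61 ± 0.79 (unadjusted p = 0.062, adjusted p = 0.9999, limma). Eth signals were -2.32 at 48 h relative to 24 h on the log2 scale and CK signals -0.71. Of the 4 kept abscisic acid and dehydration genes, all 4 were higher in Eth at both times, and 3 had a smaller response at 48 h. Their median response was 1.04 and then 0.47, and their median response difference of -0.55 was 0.15 without Eth-48 h replicate 3. The dehydrin gene dhn2 went the other way among them, with 0.07 ± 0.40 at 24 h and 0.59 ± 0.40 at 48 h.

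The gibberellin gene d3, an ent-kaurenoic acid oxidase of gibberellin synthesis, was the only kept member of its list of 5. Its mean signal of 223.8 lay just above the filter, and of the sprayed groups only Eth-24 h had a mean above that level. The members under the filter, mentioned after their values were seen, gave -0.85 (an1), 0.42 (GA20), 0.81 (KS) and 0.38 (CPPS2) at 24 h. At 48 h they gave -0.12, -0.08, 0.76 and 0.16. At 24 h an1 lay wholly below CK, GA20 and KS wholly above, and CPPS2 overlapped. d3 had signals of 684, 319 and 516 on the Eth-24 h arrays, against 207, 104 and 149 on the CK-24 h arrays, and at 48 h of 232, 178 and 146 on the Eth-48 h arrays, against 103, 118 and 132 on the CK-48 h arrays. Eth exceeded CK without overlap at both times, by 3.28-fold and 1.56-fold, so the response was smaller on the second day but still apart: 1.71 ± 0.37 and then 0.64 ± 0.37, a difference of -1.07 ± 0.52 (unadjusted p = 0.061). etr2, an ethylene receptor gene and the only kept member of 3 in the ethylene list, had 728, 645 and 454 on the Eth-24 h arrays, against 411, 212 and 261 on the CK-24 h arrays, and then 409, 365 and 411 on the Eth-48 h arrays, against 236, 350.2 and 241 on the CK-48 h arrays. Again no array overlapped on either day, at 1.08 ± 0.29 and then 0.54 ± 0.29. PPCK1, a kinase of phosphoenolpyruvate carboxylase, was 0.74 ± 0.30 at 24 h and -0.13 ± 0.30 at 48 h, and its highest array was Eth-24 h replicate 1.

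**Figure D3:**
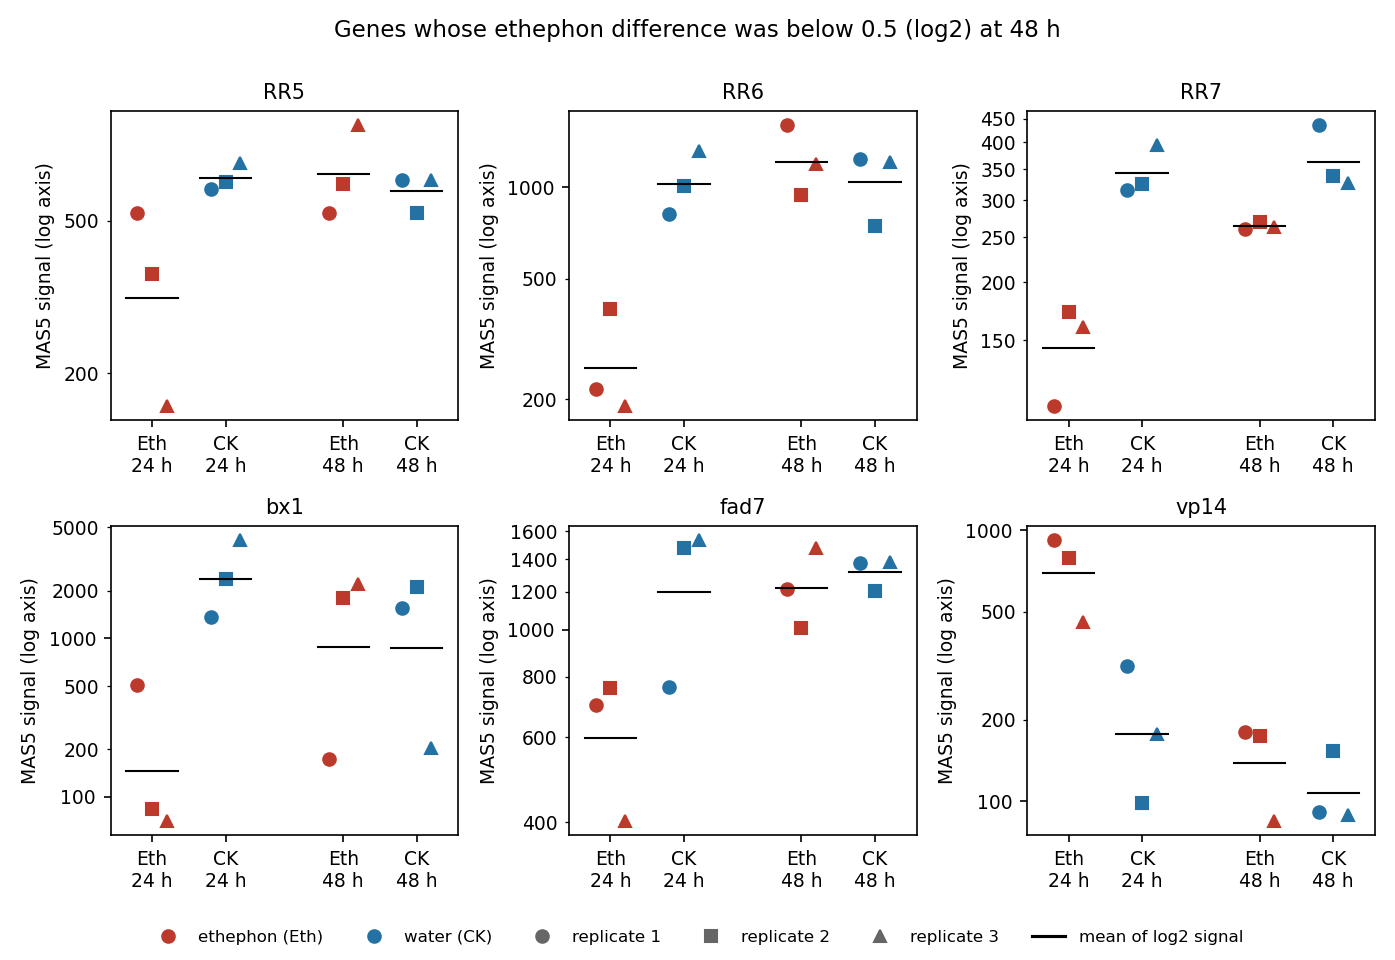
MAS5 signals (log axis) of RR5, RR6, RR7, bx1, fad7 and vp14 on each of the 12 sprayed arrays, with replicates as symbols and bars at the mean of log2 signal. At 24 h the Eth arrays lie wholly below (vp14 wholly above) the CK arrays, and at 48 h the groups overlap in each panel but RR7.

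Glutathione transferases, detoxifying enzymes that attach glutathione to reactive and foreign compounds, were on both sides. gst28 was higher in Eth at 24 h, with 846, 678 and 786 on the Eth-24 h arrays, against 224, 267 and 327 on the CK-24 h arrays, and at 48 h had 461, 593 and 197 on the Eth-48 h arrays, against 357, 577 and 196 on the CK-48 h arrays. Its response was 1.51 ± 0.55 and then 0.14 ± 0.55. gst11 and gst16, chosen for mention after their values were seen, were counted as lost from the low side, at -1.12 and -1.18 on the first day, but this rested on Eth-24 h replicate 3, where gst11 read 491 against 3765 and 3800 on the other Eth-24 h arrays. Without that array the gst11 response difference was -0.09, against 0.89 with it. Of 18 kept genes of the family, 11 had a response difference above 0 and 7 below, and 16 had a smaller response at 48 h than at 24 h (62.8% of all probe sets did). The sign of the family's median of 0.18 turned in 2 settings and without Eth-24 h replicate 3.

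Growth-regulating factors are transcription factors that promote cell division and are most active in young growing tissue, and AN3 (also GIF1) encodes a coactivator that binds them. GRF2 was counted as lost. GRF2 had signals of 216, 64.5 and 109.7 on the Eth-24 h arrays, against 503, 487 and 233 on the CK-24 h arrays, and at 48 h of 69.1, 220.0 and 617 on the Eth-48 h arrays, against 294, 411 and 139.7 on the CK-48 h arrays. Its response was -1.74 ± 0.78 and then -0.28 ± 0.78. GRF8 had 768, 60.2 and 54.7 on the Eth-24 h arrays, against 1359.8, 262 and 399 on the CK-24 h arrays. At 48 h it had 51.9, 864 and 1107 on the Eth-48 h arrays, against 441, 169 and 264 on the CK-48 h arrays. Its response was -1.94 ± 1.18 and then 0.45 ± 1.18, with overlap at both times. The response difference was 2.38. Other probe sets of GRF8, under the filter at mean signals of 137 and 47.8, gave response differences of -0.39 and 0.06. AN3 was counted as reversed, with 810.4, 108 and 78.7 on the Eth-24 h arrays, against 1371, 1356 and 108 on the CK-24 h arrays, and 52.2, 857 and 2169 on the Eth-48 h arrays, against 594, 945 and 44.9 on the CK-48 h arrays. The replicates of each group spanned 44.9 to 2169 in all. AN3 was lowest of its group on Eth-24 h replicate 3, Eth-48 h replicate 1 and CK-48 h replicate 3. These arrays were the highest of their groups in secondary-wall markers. It was also low on Eth-24 h replicate 2 and CK-24 h replicate 3 (108 each), whose wall marker sums were 2929 and 3436. The part of wall markers in the AN3 values was not tested. The AN3 response was -1.62 ± 1.55 and then 0.65 ± 1.55, each smaller than or close to its standard error. Of the 6 kept growth-regulating factors, 5 were lower in Eth at 24 h and 2 at 48 h, 3 lay apart at 24 h, all lower in Eth (10.8% of all probe sets were), and none at 48 h (9.03% in either direction), and 5 had a response difference above 0 (55.2% of all probe sets did). The list's median response was -0.68 and then 0.14. GRF12 had 418, 302 and 271 on the Eth-24 h arrays, against 447, 440.4 and 448 on the CK-24 h arrays, and 340.2, 365 and 582 on the Eth-48 h arrays, against 356, 417 and 392 on the CK-48 h arrays, or -0.46 ± 0.24 and then 0.10 ± 0.24. GRF4 and GRF5, mentioned after their values were seen, had nearly the same response on both days, at 0.21 and then 0.19 for GRF4 and -0.80 and then -0.73 for GRF5, whose arrays lay apart at 24 h and overlapped at 48 h. The median response difference of 0.65 was 0.29 without Eth-48 h replicate 3, the Eth-48 h array lowest in wall markers and highest in GRF2, GRF8, GRF12 and AN3.

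The rest of the class lost was chosen for mention after its values were seen. bt2, the small subunit of ADP-glucose pyrophosphorylase and one of the storage markers above, was lower in Eth without overlap at 24 h (-1.13) and near CK at 48 h (-0.01). LOC542318 was -1.03 and then -0.23, and LOC732757, higher in Eth, was 1.18 and then 0.32.

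Of the 8 reversed named genes, GLN6, gln3 and gln2 encode glutamine synthetases and TIP3-1, NIP2-1 and NIP2-3 membrane channels. The glutamine synthetase genes were grouped after their values were seen. Glutamine synthetase fixes ammonium into glutamine, and GLN6, gln3 and gln2 were all higher in Eth at 24 h and lower at 48 h. GLN6 (Zm.3455.3.A1_at) had signals of 51.6, 101 and 745 on the Eth-24 h arrays, against 89.1, 46.7 and 118 on the CK-24 h arrays, and at 48 h of 68.8, 120.3 and 172 on the Eth-48 h arrays, against 1573, 186 and 84.3 on the CK-48 h arrays. A single high array in Eth-24 h and another in CK-48 h carried both signs. All other sprayed arrays lay under the filter level for GLN6, and CK-0 h replicate 3 read 1758. With detection calls not used here, the sizes of the GLN6 responses are uncertain. The part of low signal in its place in the class reversed was not tested. The response was 0.99 ± 1.41 and then -1.37 ± 1.41, a difference of -2.36 ± 1.99 (unadjusted p = 0.26) that was -1.15 without CK-48 h replicate 1.

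gln3 (Zm.15859.1.A1_at) had signals of 1005, 1062 and 3799.8 on the Eth-24 h arrays, against 1711, 197 and 1462 on the CK-24 h arrays, and at 48 h of 329, 867 and 1054 on the Eth-48 h arrays, against 2189.7, 738 and 1979.6 on the CK-48 h arrays. The groups overlapped on both days, at 1.01 ± 1.20 and then -1.14 ± 1.20. gln2 (Zm.107.1.S1_at) had signals of 543, 296 and 907 on the Eth-24 h arrays, against 509, 219.6 and 397 on the CK-24 h arrays, and at 48 h of 365, 313 and 474 on the Eth-48 h arrays, against 945, 489 and 602 on the CK-48 h arrays. All Eth-48 h arrays lay below all CK-48 h arrays, while the groups overlapped at 24 h. The response was 0.57 ± 0.65 and then -0.79 ± 0.65, and gln2 was chosen for mention after its values were seen. All 3 were highest within Eth-24 h on replicate 3. The other glutamine synthetase genes on the array, mentioned after their values were seen, did not share the pattern: gln1 was -0.86 and then 0.02, and gln5 -0.31 and then -0.59. For gln5 the Eth arrays lay wholly below the CK arrays at 48 h.

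Aquaporins are membrane channels for water and small solutes. TIP3-1 belongs to the vacuolar subfamily, and NIP2-1 is of the group that carries silicic acid. TIP3-1 (Zm.616.1.S1_at) had signals of 208, 525 and 703 on the Eth-24 h arrays, against 60.5, 267 and 186 on the CK-24 h arrays, and at 48 h of 176, 167 and 144 on the Eth-48 h arrays, against 478, 221 and 206 on the CK-48 h arrays. At 24 h the groups overlapped, with CK-24 h replicate 1 lowest, and at 48 h every Eth array lay below every CK array. The response was 1.56 ± 0.67 and then -0.79 ± 0.67, a difference of -2.35 ± 0.94 (unadjusted p = 0.027, adjusted p = 0.9999, limma), between -2.86 and -1.72 with single arrays left out. TIP3-1 had the lowest unadjusted p of the named genes below 0 and stayed in its class in 11 of 12 fits with an array left out, with the wall covariate, and without the pair of arrays.

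NIP2-3 had 17.3, 17.7 and 1515 on the Eth-24 h arrays, against 23.3, 16.4 and 24.5 on the CK-24 h arrays, so that Eth-24 h replicate 3 alone made its positive response. At 48 h it had 52.7, 34.5 and 96.0 on the Eth-48 h arrays, against 355, 119 and 84.6 on the CK-48 h arrays. The response difference of -3.33 ± 2.65 was -1.18 without Eth-24 h replicate 3. Of the sprayed arrays, only that array and CK-48 h replicate 1 lay above the filter level for NIP2-3, and CK-0 h replicate 3 read 2900. With detection calls not used here, the sizes of the NIP2-3 responses are uncertain. The part of low signal in its place in the class reversed was not tested. NIP2-1 had 209, 360.3 and 729 on the Eth-24 h arrays, against 235, 182 and 349 on the CK-24 h arrays, and 455, 316 and 217 on the Eth-48 h arrays, against 623, 319.9 and 832 on the CK-48 h arrays. Its response was 0.63 ± 0.72 and then -0.80 ± 0.72, and a second kept probe set of the gene gave 0.35 and then -1.45. Of 19 kept aquaporin genes, 13 were higher in Eth at 24 h and 8 at 48 h, and 15 had a response difference below 0 (44.8% of all probe sets did). The list's median response was 0.22 and then -0.10, and its median difference of -0.27 was -0.06 without Eth-24 h replicate 3. tip1, a vacuolar aquaporin gene of high signal, was -0.06 ± 0.15 and then 0.25 ± 0.15. rf2c, an aldehyde dehydrogenase gene chosen for mention after its values were seen, was reversed the other way, at -0.77 ± 0.69 and then 0.65 ± 0.69.

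**Figure D4:**
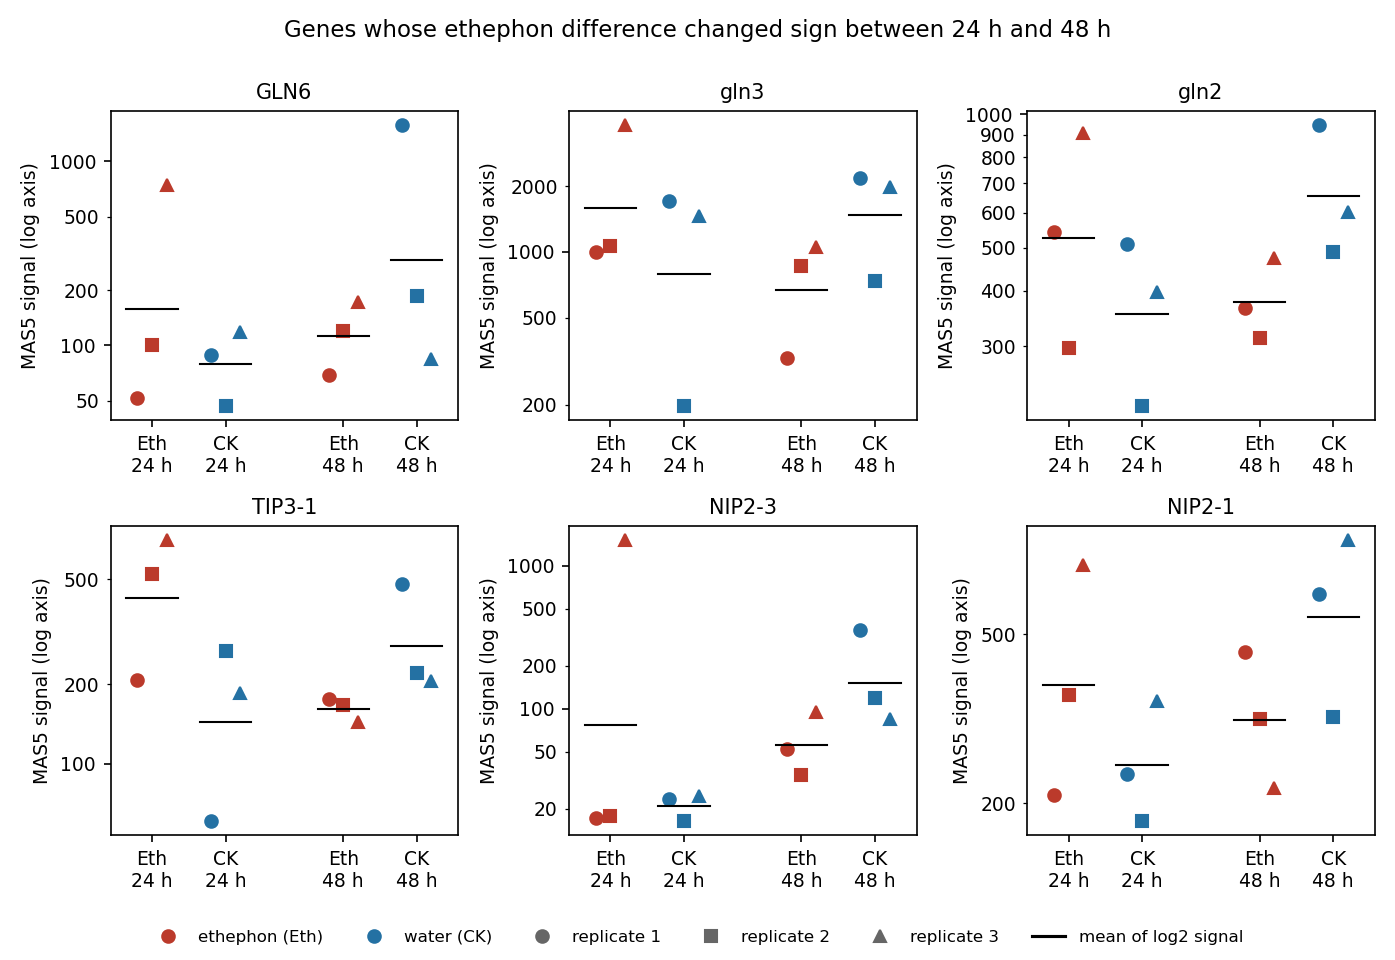
MAS5 signals (log axis) of GLN6, gln3, gln2, TIP3-1, NIP2-3 and NIP2-1 on each of the 12 sprayed arrays, with replicates as symbols and bars at the mean of log2 signal. The bar of Eth is above that of CK at 24 h and below it at 48 h in each panel, but Eth-24 h replicate 3 is the highest Eth-24 h array in all 6 panels, and only gln2 and TIP3-1 have separate groups at 48 h.

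Responses that appeared on the second day were few among named genes. expa1 encodes an expansin, a protein that loosens the cell wall during elongation. expa1 (Zm.665.1.S1_at) had signals of 332, 750.1 and 1665 on the Eth-24 h arrays, against 536, 624 and 1161 on the CK-24 h arrays, and at 48 h of 1486, 1035 and 706 on the Eth-48 h arrays, against 2549.7, 1714 and 2256 on the CK-48 h arrays. The groups overlapped on the first day and Eth lay wholly below CK on the second. The response was 0.03 ± 0.60 and then -1.06 ± 0.60, a difference of -1.09 ± 0.85 (unadjusted p = 0.22) that was -0.51 without Eth-24 h replicate 3. CK signals were 1.56 at 48 h relative to 24 h on the log2 scale, and Eth signals 0.46. Of 8 kept expansins, 6 had a response difference below 0 and the median was -0.19, of a sign that turned when some single arrays were left out.

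fnr1, a ferredoxin-NADP reductase gene, had the third lowest p among named genes above 0. It had signals of 1305, 1175 and 1008 on the Eth-24 h arrays, against 1236, 944 and 1391 on the CK-24 h arrays, and at 48 h of 2446, 1841 and 1585 on the Eth-48 h arrays, against 1045, 1566 and 817 on the CK-48 h arrays. Eth lay wholly above CK on the second day by 1.75-fold and overlapped on the first, at -0.02 ± 0.26 and then 0.81 ± 0.26, a difference of 0.83 ± 0.36 (unadjusted p = 0.04). The other kept probe sets of the gene gave differences of 0.78 and 0.86. A probe set of fnr1 under the filter, with a mean signal of 76.1, gave 0.24 and then -0.03, a difference of -0.26. m4, a MADS-box transcription factor gene, had 1962, 2542 and 2889.9 on the Eth-24 h arrays, against 2378, 1659.5 and 2828 on the CK-24 h arrays, and 1779, 1364 and 1855 on the Eth-48 h arrays, against 2431, 2140.4 and 3283 on the CK-48 h arrays. Eth lay wholly below CK at 48 h alone, at 0.12 ± 0.26 and then -0.64 ± 0.26. LOC541865 was 0.05 ± 0.23 and then -0.58 ± 0.23, with overlap at both times. lox1, a lipoxygenase gene of oxylipin synthesis, was higher in Eth on both days and further on the second, at 0.72 ± 0.30 and then 1.46 ± 0.30. lox1 had signals of 6933, 10322 and 10519 on the Eth-24 h arrays, against 9216, 4401 and 4144 on the CK-24 h arrays, and at 48 h of 12409.8, 11000.2 and 9607 on the Eth-48 h arrays, against 4240.0, 3446 and 4345 on the CK-48 h arrays. All Eth arrays exceeded all CK arrays at 48 h, while at 24 h CK replicate 1 lay among the Eth arrays.

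The lowest p-values of all belonged to probe sets without a gene name. Zm.17919.1.A1_at had signals of 829, 981 and 839 on the Eth-24 h arrays, against 889.7, 933 and 783 on the CK-24 h arrays, and at 48 h of 958, 989.6 and 681 on the Eth-48 h arrays, against 450.4, 457 and 457 on the CK-48 h arrays. Its 3 CK-48 h arrays agreed closely and lay below all others, and the difference of 0.90 ± 0.26 had an unadjusted p of 0.0042. Zm.8647.1.A1_at was -0.36 ± 0.26 and then 0.78 ± 0.26. Zm.2681.1.A1_at had signals of 2615, 1334 and 2237 on the Eth-24 h arrays, against 227, 96.4 and 1117 on the CK-24 h arrays, and at 48 h of 685, 196 and 184 on the Eth-48 h arrays, against 518, 644 and 1773 on the CK-48 h arrays. It was reversed at 2.77 ± 0.94 and then -1.53 ± 0.94, with Eth wholly above CK on the first day and an overlap on the second. Zm.16579.1.A1_at lay just short of the size rule for a lost response, at 0.95 ± 0.20 and then 0.04 ± 0.20, with 870.2, 966 and 712 on the Eth-24 h arrays, against 465, 429.5 and 417 on the CK-24 h arrays.

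Zm.17598.1.S1_at had signals of 878, 875 and 960.5 on the Eth-24 h arrays, against 1364, 1447 and 1819 on the CK-24 h arrays, and at 48 h of 1745, 1183 and 1296 on the Eth-48 h arrays, against 1518, 25.9 and 22.2 on the CK-48 h arrays. This was the only probe set that passed in any fit: without CK-48 h replicate 1 its response difference was 6.61 with an adjusted p of 4.3e-06 (limma), and with it 4.62 ± 1.62. CK-48 h replicate 1 lay among the Eth-48 h arrays and the other CK-48 h arrays far below every other sprayed array.

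Of the 762 named genes, 20 stood apart in the same direction on both days at any size. Of these, 4 (0.525% of the named genes) did so by at least 1 on the log2 scale. Over all 10573 kept probe sets, 159 stood apart on both days at any size, 8 of them in opposite directions. By at least 1 in the same direction, 26 of all kept probe sets (0.246%) did so. gst30 is a glutathione transferase gene. gst30 (Zm.864.1.S1_at) had signals of 1860.1, 1476 and 1626 on the Eth-24 h arrays, against 134, 26.6 and 35.1 on the CK-24 h arrays, and at 48 h of 1172, 268 and 241 on the Eth-48 h arrays, against 70.3, 15.6 and 92.9 on the CK-48 h arrays. The CK signals lay under the filter of 218 set on mean signal, and with detection calls not used here the sizes of the fold are uncertain. It was 5.04 ± 0.87 and then 3.18 ± 0.87, with Eth-48 h replicates 2 and 3 well below the Eth-24 h arrays but above all CK arrays. Hb, a plant haemoglobin gene, had 5043, 4851 and 3333 on the Eth-24 h arrays, against 2533, 1034 and 1529 on the CK-24 h arrays, and 4652, 3845 and 4038 on the Eth-48 h arrays, against 1265, 2498 and 801 on the CK-48 h arrays, so the response was nearly the same, at 1.45 ± 0.39 and then 1.61 ± 0.39. cpi2, a cystatin that inhibits cysteine proteases, was 1.31 ± 0.49 and then 1.71 ± 0.49, from a probe set whose suffix marks probes that can match several transcripts. Another kept probe set of cpi2, with the same suffix, gave 0.93 and then 0.94, under the size of 1 for the class kept. Those under the filter gave 0.58 and then 0.30, and 0.65 and then 0.29. MPK4, a mitogen-activated protein kinase gene, was 1.71 ± 0.58 and then 1.57 ± 0.58. It had 486, 498 and 912 on the Eth-24 h arrays, against 441, 153 and 94.2 on the CK-24 h arrays. At 48 h it had 707, 564 and 273 on the Eth-48 h arrays, against 164, 196 and 129 on the CK-48 h arrays. CK-24 h replicate 1 lay just under the lowest Eth-24 h array. The remaining CK signals lay under the filter level of 218, so the sizes of the fold are uncertain. cycD2, a D-type cyclin of the entry into the cell cycle and a marker of the labelled tissue, also stayed apart with smaller sizes. Of the 5 kept markers of that tissue, cycD2 was the only 1 higher in Eth, and the other 4 were lower at both times. Of the 8 kept cell cycle genes, 2 were higher in Eth at 24 h and 3 at 48 h. cycD2 had signals of 2945, 2659.6 and 2911 on the Eth-24 h arrays, against 1829, 1559 and 1766 on the CK-24 h arrays, and at 48 h of 2486, 2279.8 and 2044 on the Eth-48 h arrays, against 1794, 1782 and 1902 on the CK-48 h arrays. The response was 0.73 ± 0.13 and then 0.31 ± 0.13, with tight replicates and a difference of -0.42 ± 0.19 (unadjusted p = 0.043, adjusted p = 0.9999, limma).

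Larger gene groups were read by counts beside the background, in which 5835 of 10573 probe sets (55.2%) had a response difference above 0 and 4738 (44.8%) below, and 415 (54.5%) and 347 (45.5%) of the 762 named genes. At 24 h the arrays of 140 named genes did not overlap (18.4%), 54 of them higher in Eth (7.09%) and 86 lower (11.3%), and at 48 h those of 86 (11.3%), 50 higher (6.56%) and 36 lower (4.72%). Heat shock proteins and chaperones, which refold proteins, had all 11 kept members above 0, with a median response of -0.22 at 24 h and 0.04 at 48 h. No member passed the test, and the median difference of 0.47 was between 0.14 and 0.61 with any array left out. hsp22 was -0.48 ± 0.51 and then 0.54 ± 0.51, and hsp101, a disaggregating chaperone, was 0.31 ± 0.33 and then 0.78 ± 0.33, with all Eth-48 h arrays above all CK-48 h arrays. Chromatin modifiers and remodellers had 38 of 46 kept members above 0. Of these 46, 35 were lower in Eth at 24 h and 21 at 48 h. At 24 h 6 lay wholly below CK (10.8% of all probe sets did) and 1 wholly above (7.05%). At 48 h none lay wholly below CK (3.9%) and 2 wholly above (5.14%). The median difference of 0.23 was 0.03 without Eth-48 h replicate 3. mez1, an Enhancer of zeste homologue of the Polycomb complex that methylates histone H3, had 246, 191 and 182 on the Eth-24 h arrays, against 327, 399.9 and 320.1 on the CK-24 h arrays, and 319, 222 and 552 on the Eth-48 h arrays, against 419, 314 and 401 on the CK-48 h arrays, or -0.76 ± 0.29 and then -0.14 ± 0.29. hon102, a linker histone gene, was -0.02 ± 0.16 and then 0.40 ± 0.16.

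Cysteine proteases and cystatins linked to senescence had 7 of 9 kept members below 0. All 9 were higher in Eth at 24 h and 6 at 48 h, and 5 lay wholly above CK at 24 h (7.05% of all probe sets did) and 2 at 48 h (5.14%), with a median response of 0.53 and then 0.06. mir2, a papain-like protease gene, had 737, 867 and 1338 on the Eth-24 h arrays, against 669, 531 and 587 on the CK-24 h arrays, and 948, 655 and 597 on the Eth-48 h arrays, against 621, 754 and 703 on the CK-48 h arrays. It was 0.68 ± 0.24 and then 0.06 ± 0.24. ccp1, another cysteine protease gene of very high signal, was 0.35 ± 0.21 and then -0.34 ± 0.21, a difference of -0.69 ± 0.29 (unadjusted p = 0.034). Photosynthesis genes had 15 of 19 below 0, with a median response of 0.01 and then -0.18, and the sign of the median difference of -0.18 turned without Eth-24 h replicate 2. FDX6, a ferredoxin gene, was 0.65 ± 0.22 and then 0.08 ± 0.22. The 4 kept leaf markers (mdh6, pdk1, Rca and rbcS) are themselves members of this list, 3 of them below 0 with a median difference of -0.68, and their part in it was not tested.

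Groups of cell growth and sugar metabolism had medians whose sign turned with single arrays left out. Cell cycle genes had 5 of 8 kept members above 0 and a median difference of 0.02. It ranged from -0.43 to 0.56 with single arrays left out and from -0.13 to 0.65 over the other settings. The list members under the filter, mentioned after their values were seen, were all above 0 in the fit without a filter. They gave differences of 1.45 (cyc2), 1.44 (cyc3), 0.73 (cyc1), 0.70 (RBR2) and 0.54 (cycD1), at mean signals of 55.8 (cyc1) to 183 (RBR2). Tubulins had 4 of 10 above 0 and a median of -0.04 (-0.16 to 0.07 with single arrays left out), cellulose synthases, 3 of them also wall markers, 5 of 9 and 0.08 (-0.19 to 0.31), and anaerobic response genes 8 of 16 and 0.01 (-0.08 to 0.04). Named members with small differences were cdc2, the kinase of the division cycle, at -0.22 ± 0.16 and then 0.00 ± 0.16, cesa5 at -0.21 ± 0.18 and then 0.07 ± 0.18, cesa6 at -0.27 ± 0.25 and then 0.12 ± 0.25, and gpc2, a glyceraldehyde-phosphate dehydrogenase gene, at 0.08 ± 0.08 and then -0.14 ± 0.08. Jasmonate genes had 3 of 6 above 0 and a median of -0.12, and opr8, an oxophytodienoate reductase gene, was 0.39 ± 0.21 and then 0.02 ± 0.21. The member with the largest difference, opr5, another gene of that family mentioned after its values were seen, was 3.26 at 24 h, with no overlap of the arrays, and 1.77 at 48 h, with overlap, a difference of -1.49. The remaining genes taken by the naming rule had differences of 0.26 ± 0.12 (tif-4A3, a translation initiation factor), 0.37 ± 0.46 (hk3, a histidine kinase), -0.15 ± 0.16 (ald1), -0.55 ± 0.54 (tub4), -0.18 ± 0.35 (tua5) and -0.57 ± 0.92 (expB4). An absence of calls does not show that these responses were equal on both days.

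**Figure D5:**
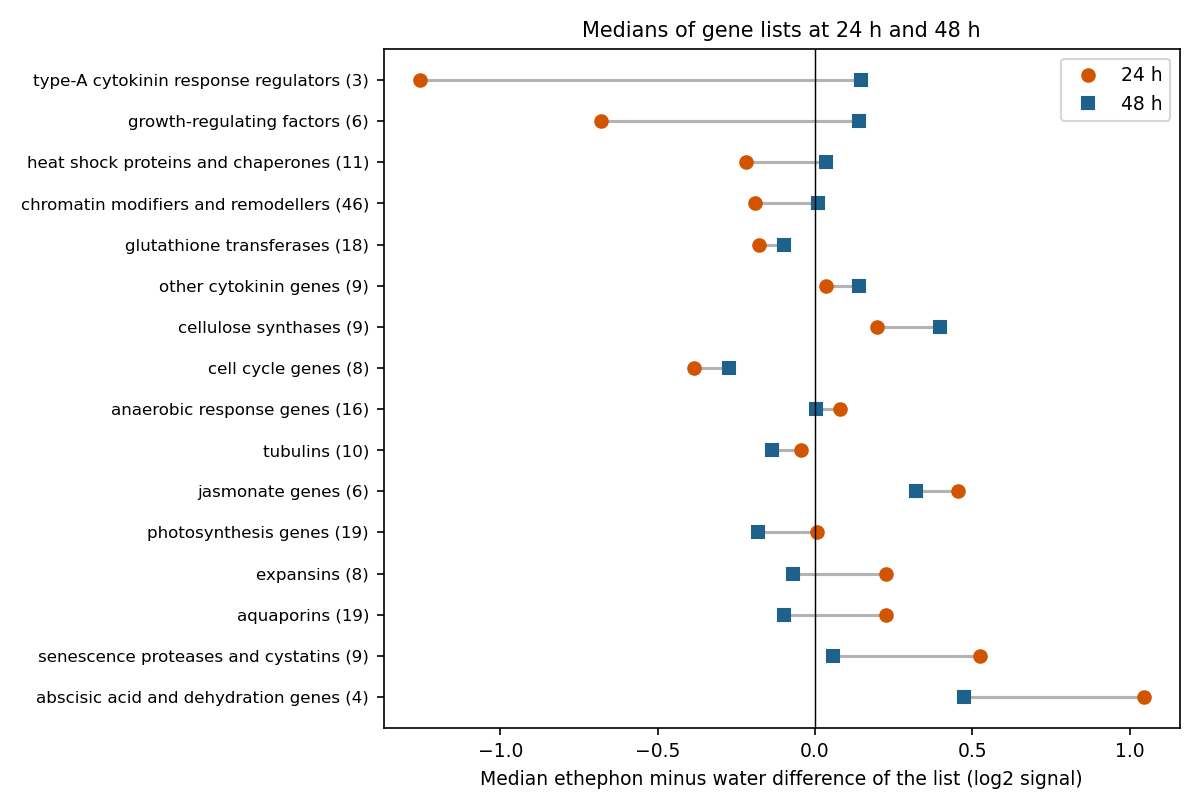
Median Eth minus CK difference of log2 signal of each gene list with at least 3 kept genes (number in brackets) at 24 h (circles) and 48 h (squares). Type-A response regulators go to 0.15 at 48 h beside -1.26 at 24 h and growth-regulating factors to 0.14 beside -0.68, while abscisic acid genes (0.47 beside 1.04) and senescence proteases (0.06 beside 0.53) come nearer 0 from above.

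RNA quality was compared through the 3'/5' index, the mean log2 ratio of 3' to 5' probe sets of the control genes, which is higher where RNA or labelling is shorter. It was 1.94 ± 0.08 in Eth-24 h and 1.93 ± 0.36 in CK-24 h, and 1.80 ± 0.07 in Eth-48 h and 1.31 ± 0.31 in CK-48 h (SD, n = 3 each). The Eth minus CK difference of the index was 0.0075 at 24 h and 0.48 at 48 h, where a two-sided exact permutation test gave p = 0.1, the smallest that 3 against 3 arrays allow. The change of that difference, 0.47, had an exact permutation p of 0.17. The part of RNA quality in the results at 48 h was not tested beyond a fit with the index as a covariate, in which 67 of the 102 lost, 55 of the 82 reversed, 26 of the 35 appeared and 23 of the 26 kept probe sets remained in their class.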

How the data were processed

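Per the labels' protocols, total RNA was taken with Trizol, biotin-labelled with the 3' IVT Express kit and hybridised to maize genome arrays. Per the submitters' processing notes, MAS5 made the values. The deposited intensity table holds linear MAS5 signals of 1 to 22867, with array medians of 298 to 370. Detection calls were not used here.

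Signals were taken to log2 with no offset and no further scaling. The 113 AFFX control probe sets were left out, and 10573 of 17621 others with a mean signal of at least 218 over the 15 arrays were kept. Group means were fitted with limma 3.58.1 (R 4.3.3; eBayes with trend), and p-values were adjusted by Benjamini-Hochberg over all kept probe sets at 0.05. A probe set with exactly 1 gene symbol in the platform annotation was named (1452 probe sets, 1108 genes; 16168 have none and 1 has several), and the brightest stood for its gene. Of the 1108 genes, 1060 were in the RefSeq gene table of assembly Zm-B73-REFERENCE-NAM-5.0, used for names only; symbols of array designs can be old.

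The named genes were the 8 lowest p in each direction, up to 6 of each class by size, all type-A response regulators and the 2 lowest p of each other list; others are marked as chosen after their values were seen. The classes, members and lists were chosen with earlier results of these data known. Symbols that matched a list by letters but not by function were removed once the annotation was read. The alternatives were quantile normalization, log2(signal + 32), no filter, a 60th percentile filter, the 12 sprayed arrays alone, array weights, the replicate block, the 3'/5' index as a covariate, robust moderation and leaving out each array, with 2 more added after the data were seen. The labels call the arrays biological replicates with RNA of 3 seedlings each. Replicate numbers are shared between groups, but same-numbered arrays did not deviate together (correlations of -0.51 to 0.44), so they were not taken as pairs. The fitting code was tested on simulated data. The values of 1 gene among the lost responses are not reported here.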

Additional observations from a re-analysis of the deposited data

How the results depend on the processing

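The count of 0 probe sets with an adjusted p under 0.05 (limma) stood in every other setting but 1: without CK-48 h replicate 1, Zm.17598.1.S1_at passed, so the count with single arrays left out was 0 to 1. The 98 at an unadjusted p under 0.05 became 244 with no filter on low signal, 52 with the 60th percentile filter and 253 with array weights, and 47 (without Eth-48 h replicate 3) to 234 (without Eth-24 h replicate 1) with single arrays left out. The lost class of 102 became 179 with no filter, 43 with the 60th percentile filter and 58 with the wall markers as a covariate, the reversed class of 82 became 138 with no filter, 45 with the 60th percentile filter and 223 without Eth-24 h replicate 3 and Eth-48 h replicate 1, the appeared class of 35 became 58, 19 and 68 in the same settings, and the kept class of 26 became 15 with the 60th percentile filter. Settings with another filter test 17621 or 7049 probe sets, and with an array left out fewer arrays have to stand apart; the cause of the other shifts was not tested. With single arrays left out the classes held 46 (without Eth-48 h replicate 3) to 492 (without Eth-24 h replicate 1) lost, 72 to 304 (without Eth-48 h replicate 1) reversed, 18 (without CK-24 h replicate 1) to 93 (without CK-48 h replicate 2) appeared and 20 to 123 (without Eth-48 h replicate 3) kept. Numbers shared between groups do not pair the arrays (median correlation -0.13 for the same number and 0.0049 for other numbers), and the fit with the replicate block gave 0 and 99 at the 2 thresholds. Of 689 response differences of 65 named genes and probe sets in other settings, 7 changed sign: with array weights cpi2 to -0.048, Hb to -0.34, hk3 to -0.062 and gst11 to -0.091, without the pair of arrays Hb to -0.11 and gst11 to -0.21, and with the wall covariate MPK4 to 0.035. With single arrays left out, 16 of 780 changed sign, in 7 genes with ranges of -0.21 to 0.80 (cpi2), -0.22 to 0.60 (Hb), -0.76 to 0.35 (MPK4), -0.47 to 0.059 (tua5), -1.09 to 0.24 (expB4), -0.09 to 1.39 (gst11) and -2.73 to 0.46 (dhn1); the cause was not tested. None of these 65 passed in any fit, with a lowest adjusted p of 0.88 (limma).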

Other observations

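2 further genes had large differences between treatments and were chosen after their values were seen. xet1 encodes a xyloglucan endotransglycosylase, an enzyme that cuts and rejoins wall polymers. xet1 had signals of 16.3, 115 and 5067 on the Eth-24 h arrays, against 15.3, 7.16 and 14.5 on the CK-24 h arrays. At 48 h xet1 had 1732, 420 and 29.1 on the Eth-48 h arrays, against 57.6, 84.1 and 174 on the CK-48 h arrays. The 3 highest signals were those of the 3 arrays highest in secondary-wall markers. Its response was 4.18 ± 2.11 at 24 h and 1.55 ± 2.11 at 48 h, and the response difference of -2.63 ± 2.98 was -0.34 without Eth-24 h replicate 3.

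dhn1 encodes a dehydrin, a protein that builds up in drying tissue. dhn1 had signals of 5997, 3673 and 6225 on the Eth-24 h arrays, against 5275, 118 and 177 on the CK-24 h arrays. At 48 h dhn1 had 12069, 4455 and 349 on the Eth-48 h arrays, against 449, 663 and 406 on the CK-48 h arrays. CK-24 h replicate 1 lay among the Eth arrays and Eth-48 h replicate 3 below the CK-48 h arrays, so the groups overlapped on both days. The response was 3.43 ± 1.34 and then 2.42 ± 1.34 (adjusted p = 0.545 and 0.994, limma).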
